A study of Homo sapiens with 8 samples.

Results

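The class IA phosphatidylinositol 3-kinase (PI3K) subunits, the inositol lipid phosphatases and the kinase and phosphatase that act on AKT were examined in Jurkat cells with and without CBAP. The set was fixed by name as 9 genes, and the deposited table of 13453 genes held 8 of them, namely PIK3CA, PIK3CB, PIK3CD, PIK3R1, PIK3R2, INPP5D, PDPK1 and PHLPP1. The remaining gene, INPP4B, was not analysed here. The Jurkat line is derived from human T-cell acute lymphoblastic leukemia (T-ALL). RNA-seq was performed on 8 libraries, 2 of each of 4 conditions, to ask how loss of CBAP, the product of TMEM102, alters gene expression. The sh-Ctrl cells carried a non-targeted control shRNA and the sh-CBAP cells an shRNA against CBAP, both after selection with puromycin (the shRNA set). The CBAP-reconstituted cells were CRISPR/Cas9 CBAP-knockout cells expressing CBAP-GFP, and the CBAP-KO+GFP cells were knockout cells expressing GFP (the CRISPR set). Both conditions of the CRISPR set therefore carried the knockout and a GFP construct, and no CRISPR control without the knockout was among the libraries. Knockout cells were grown from single cells and the shRNA cells as stable clones. Which clones and which CBAP shRNA were sequenced is not given in the sources used here. Nothing in the labels says that the libraries of a condition came from separate cultures, so all p-values measure the spread between these libraries only, which may be technical.

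PI3K is a heterodimer of a catalytic subunit, which adds a phosphate to the membrane lipid PIP2 to make PIP3, and a regulatory subunit, which stabilizes the catalytic subunit and brings it to phosphotyrosine on receptors and adaptors. PIP3 recruits AKT and PDPK1 to the membrane, where PDPK1 phosphorylates the activation loop of AKT. INPP5D (SHIP1) breaks PIP3 down by removing a phosphate of the inositol ring, INPP4B acts on the product of SHIP1, and PHLPP1 dephosphorylates the hydrophobic motif of AKT. Lack of SHIP1 protein has been described in Jurkat cells. The values here are of RNA and carry no information on the protein.

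The promoters of INPP5D and PIK3CA are printed because the profiles of these genes over the 8 libraries lay close together, as described further on. Each run holds the 250 bases before the RefSeq start of the gene on the plus strand of GRCh38.p14, which is not the build of the expression table. The INPP5D window is chr2:233060092-233060341 and the PIK3CA window chr3:179148107-179148356. Capitals mark matches, on either strand, to 6 searched motifs.
INPP5D: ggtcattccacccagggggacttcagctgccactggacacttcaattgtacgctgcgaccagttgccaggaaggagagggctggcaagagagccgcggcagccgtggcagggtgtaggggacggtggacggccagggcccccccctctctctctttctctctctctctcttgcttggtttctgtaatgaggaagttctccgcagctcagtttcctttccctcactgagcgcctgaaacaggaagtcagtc
PIK3CA: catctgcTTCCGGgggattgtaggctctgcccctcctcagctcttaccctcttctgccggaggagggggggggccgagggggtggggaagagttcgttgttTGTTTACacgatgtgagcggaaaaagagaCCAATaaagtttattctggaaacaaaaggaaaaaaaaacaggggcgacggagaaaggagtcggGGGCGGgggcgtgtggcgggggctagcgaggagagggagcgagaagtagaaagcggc
The motifs were the FOXO motif TGTTTAC, the E-box CACGTG, the GC box GGGCGG, the CCAAT box CCAAT, the ETS core CCGGAA and the CRE TGACGTCA. The INPP5D window held no exact match to any of these motifs. The PIK3CA window held 1 each of the ETS core (as its reverse complement), the FOXO motif, the CCAAT box and the GC box, none overlapping another. Only these exact letters were searched, so other forms of the sites, ETS sites among them, were not counted. Among 27305 promoter windows of the same length, 14.8% held the ETS core, 2.98% the FOXO motif, 33% the CCAAT box, 42.3% the GC box, 6.49% the E-box and 1.77% the CRE. GC content was 59.2% for INPP5D and 57.6% for PIK3CA, against a median of 58% over all windows. Over the windows of all 9 named genes, 7 held the GC box, 4 the CCAAT box, 3 the ETS core, 1 the FOXO motif and 0 the E-box or the CRE.

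Expression was deposited as FPKM, a fragment count scaled to exon length and to the mapped fragments of the library, which summed to between 362082 and 434742 per library and hold no information on depth. A change is given below on the log2(FPKM + 1) scale with its standard error, which understates the change of genes with low FPKM. It was called at an adjusted p under 0.05 in limma, with Benjamini-Hochberg adjustment over 11427 tested genes whose FPKM averaged 1 or more, and all 8 genes passed that minimum. TMEM102 had FPKM of 4.07 and 4.74 in sh-Ctrl and of 2.69 and 2.89 in sh-CBAP cells (log2 change -0.51, standard error 0.096, adjusted p = 0.0287). This call held under 7 of 14 alternatives, and the adjusted p was 0.0588 to 0.0782 without sh-Ctrl replicate 2 or any 1 of the CRISPR-set libraries. In the 4 CRISPR-set libraries it had a listed 0 throughout, CBAP-reconstituted cells included, and the targeted gene therefore did not check those labels. All 10 T lineage markers were in the table, whereas 5 of 6 B lineage and 6 of 7 myeloid markers were not analysed here, CD79A (0.732 to 22.5 FPKM) and CD68 (0.935 to 2.41) being the others. Each library had 606 to 1256 genes with a listed 0, and no more was read into such a 0.

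In the shRNA set, knockdown of CBAP was accompanied by higher INPP5D and lower PIK3R2 and PIK3CD. These 3 of 8 genes passed the test, against 12.3% of all genes tested (3.62% higher and 8.7% lower). In the CRISPR set, CBAP-KO+GFP cells had higher INPP5D and PIK3CA and lower PHLPP1 and PIK3R1 than CBAP-reconstituted cells, and PDPK1 was listed at 0, which made 5 of 8 (4 without PDPK1) against 49.9% of all genes (23.9% higher and 25.9% lower). The share of genes called in the CRISPR set was thus near that of the table as a whole. The median change of the 8 genes was 0.01 with knockdown and -0.01 with knockout, beside -0.06 and 0.00 over all genes tested. INPP5D was the only gene of the 8 that was called in the same direction in both sets. Its shRNA-set call (adjusted p = 0.0486 in limma) was lost under 10 of 16 alternatives. The share of all genes called in the same direction in both sets was not computed.

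PIK3CA encodes p110α, a catalytic subunit found in most tissues, and lies on the plus strand of chr3:178865902-178957881 (GRCh37, as all gene positions below). Its FPKM was 8.03 and 7.03 in sh-Ctrl, 8.52 and 9.71 in sh-CBAP, 4.26 and 4.14 in CBAP-reconstituted and 7.53 in each of the CBAP-KO+GFP libraries. The CBAP-reconstituted libraries stood below all others. In the CRISPR set PIK3CA was 1.79-fold higher in CBAP-KO+GFP cells (log2 change 0.71, standard error 0.091, adjusted p = 0.00184), and it was called under all 16 alternatives. With knockdown its log2 change was 0.25 (standard error 0.091, adjusted p = 0.138), and it was not called. Between CBAP-KO+GFP and sh-Ctrl cells, where 51.7% of all genes were called, the difference was 0.00 with a 95% interval of -0.22 to 0.23. CBAP-reconstituted cells differed from sh-Ctrl cells by -0.71 (adjusted p = 0.00319, and -0.88 relative to the median of all genes). The order was sh-CBAP, CBAP-KO+GFP, sh-Ctrl and CBAP-reconstituted, in which only the last step passed the test as deposited. The step from sh-CBAP to CBAP-KO+GFP, at -0.24 (adjusted p = 0.0674), passed it with quantile normalization (-0.50, adjusted p = 0.00311) and with upper-quartile scaling (-0.36, adjusted p = 0.0164) and without sh-CBAP replicate 1 (-0.33, adjusted p = 0.035). Of the 100-base windows of the PIK3CA transcript, 36.1% overlapped KCNMB3 on the opposite strand. Whether the counting used strand is not given in the sources used here, and KCNMB3 was listed at 0 in 7 libraries and at 0.08 in the other.

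PIK3CB (p110β, chr3:138371540-138553770, minus strand) was the steadiest of the genes, with 5.85 to 7.41 FPKM over all libraries. Its values were 6.61 and 5.85 in sh-Ctrl, 6.06 and 7.41 in sh-CBAP, 6.71 and 6.28 in CBAP-reconstituted and 6.5 and 6.89 in CBAP-KO+GFP cells, and all conditions overlapped. The log2 change was 0.09 (95% interval -0.18 to 0.36) in the shRNA set and 0.04 (-0.23 to 0.31) in the CRISPR set, and no step in its order passed the test.

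PIK3CD encodes p110δ, the catalytic subunit enriched in leukocytes (chr1:9689947-9789172, plus strand). It was measured at 7.21 and 8.28 FPKM in sh-Ctrl, 6.02 and 5.49 in sh-CBAP, 8.99 and 8.58 in CBAP-reconstituted and 10 and 9.87 in CBAP-KO+GFP cells. The sh-CBAP libraries were lowest and the CBAP-KO+GFP libraries highest. PIK3CD fell by 0.37 in the shRNA set (standard error 0.084, adjusted p = 0.0456). That call was lost under 11 of 16 alternatives (adjusted p from 0.0338 to 0.118 over all 16), among them no filter, both other scalings and the removal of either sh-Ctrl, CBAP-reconstituted or CBAP-KO+GFP library or of sh-CBAP replicate 2 (0.0513 to 0.118). In the CRISPR set the log2 change was 0.16 (95% interval -0.05 to 0.37, adjusted p = 0.159). Only the step from sh-Ctrl to sh-CBAP passed the test in its order. The transcript shared 1.69% of its windows with CLSTN1 on the opposite strand, which was listed at 0 in 7 libraries and at 33.8 in CBAP-KO+GFP replicate 2.

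**Figure D1:**
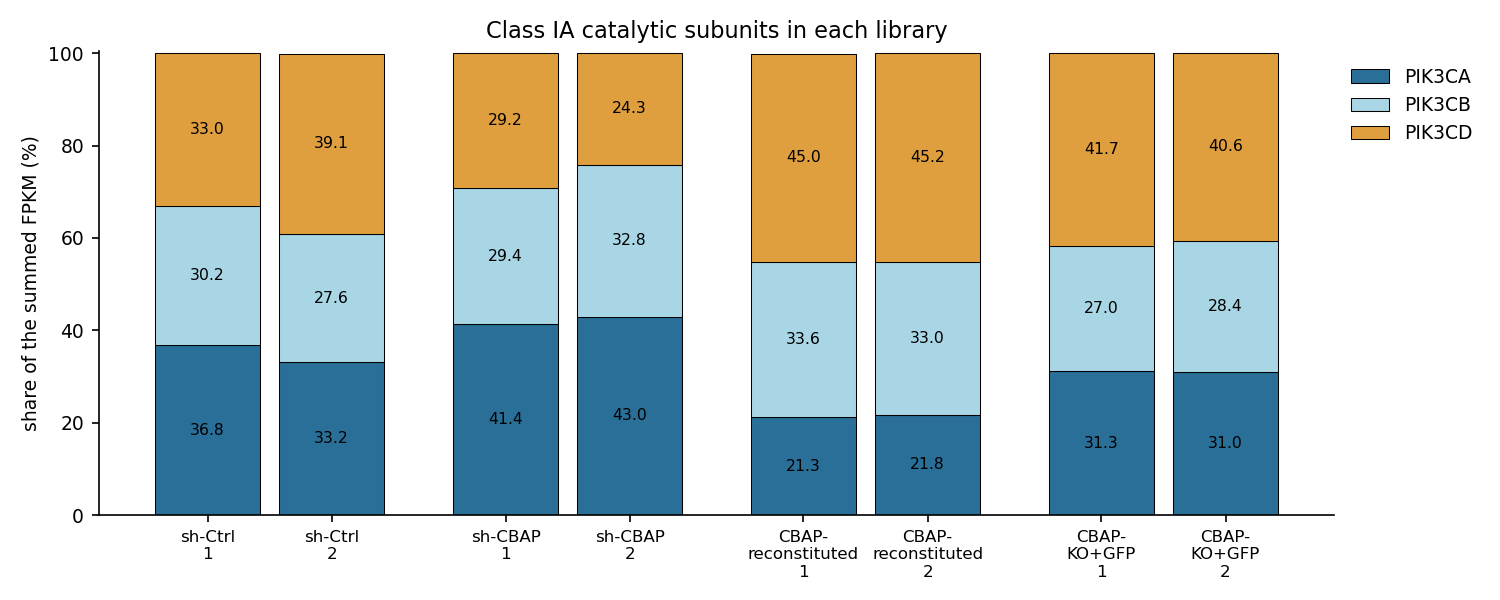
Share of the summed FPKM of PIK3CA, PIK3CB and PIK3CD taken by each, in percent, with 1 bar per library. PIK3CA took 21.3% and 21.8% in CBAP-reconstituted and 41.4% and 43% in sh-CBAP cells.

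The make-up of the catalytic FPKM therefore differed more between conditions than its sum, which lay between 19 and 24.3 FPKM. PIK3CD took the largest share in both libraries of the CRISPR-set conditions, with 45% and 45.2% in CBAP-reconstituted and 41.7% and 40.6% in CBAP-KO+GFP cells. PIK3CA took the largest share in sh-CBAP cells (41.4% and 43%), and in sh-Ctrl cells the first place fell to PIK3CA in replicate 1 (36.8%) and to PIK3CD in replicate 2 (39.1%). The ratio of PIK3CA to PIK3CD was 1.42 and 1.77 in sh-CBAP cells, above both sh-Ctrl libraries (1.11 and 0.85), and 0.75 and 0.763 in CBAP-KO+GFP cells, above both CBAP-reconstituted libraries (0.474 and 0.483). These shares and ratios were not tested.

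Among the regulatory subunits, PIK3R1 encodes p85α and its shorter forms (chr5:67511568-67597649, plus strand) and was the most abundant of the genes per length. It had 19.9 and 24.3 FPKM in sh-Ctrl, 21.2 and 20.3 in sh-CBAP, 25.8 and 26.7 in CBAP-reconstituted and 21.6 and 20.4 in CBAP-KO+GFP cells. The CBAP-reconstituted libraries were the highest. In the CRISPR set PIK3R1 fell by 0.31 (standard error 0.098, adjusted p = 0.0422), a call that was lost under 9 of 16 alternatives (adjusted p from 0.0105 to 0.174 over all 16). Quantile normalization (0.0704), upper-quartile scaling (0.0711) and the removal of either CBAP-reconstituted (0.129 and 0.174), CBAP-KO+GFP (0.0944 and 0.165) or sh-CBAP library (0.0504 for each) were among these. The shRNA-set libraries overlapped (log2 change -0.08, 95% interval -0.32 to 0.16). No neighbouring conditions in its order passed the test.

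PIK3R2 encodes p85β (chr19:18263973-18281342, plus strand). Its FPKM was 16.5 and 16.7 in sh-Ctrl, 11.5 and 11.3 in sh-CBAP, 17.3 and 18.1 in CBAP-reconstituted and 17.6 and 16.4 in CBAP-KO+GFP cells. The sh-CBAP libraries stood apart from the other 6. PIK3R2 fell by 0.50 in the shRNA set (standard error 0.058, adjusted p = 0.00888), to 0.687 times the control level, and it was the gene of the 8 whose shRNA-set call held under all 16 alternatives (adjusted p from 0.00578 to 0.0436). Its CRISPR-set libraries overlapped and the log2 change was -0.05 (95% interval -0.20 to 0.09). Of its windows, 99% were shared with an annotated same-strand readthrough transcript that starts at IFI30. IFI30 itself had 13.7 and 13.4 FPKM in sh-Ctrl and 18.2 and 17.9 in sh-CBAP cells, and how the authors assigned reads between these models is not given in the sources used here. The summed FPKM of PIK3R1 and PIK3R2 was 1.4 to 1.94 times that of the catalytic subunits in the shRNA set, 2.16 and 2.36 times in CBAP-reconstituted and 1.62 and 1.52 times in CBAP-KO+GFP cells. That sum leaves out PIK3R3, which made up 30.9% to 43.1% of the class IA regulatory FPKM.

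INPP5D encodes SHIP1, the 5-phosphatase of blood cells that turns PIP3 into a lipid with phosphates at the remaining positions (chr2:233924677-234116549, plus strand). It was measured at 6.15 and 6.24 FPKM in sh-Ctrl, 8.08 and 9.01 in sh-CBAP, 3.44 and 3.28 in CBAP-reconstituted and 8.05 and 6.84 in CBAP-KO+GFP cells. All 4 CBAP-deficient libraries lay above all 4 CBAP-expressing libraries. In the CRISPR set it was 2.21-fold higher in CBAP-KO+GFP cells (log2 change 0.95, standard error 0.095, adjusted p = 0.00081), and all 16 alternatives kept the call. With knockdown it was 1.38-fold higher in sh-CBAP cells (log2 change 0.41, standard error 0.095, adjusted p = 0.0486). The shRNA-set call was lost under 10 of 16 alternatives (adjusted p from 0.0222 to 0.137 over all 16), including the removal of either sh-Ctrl, CBAP-reconstituted or CBAP-KO+GFP library or of sh-CBAP replicate 2 (0.0639 to 0.137). Its order was that of PIK3CA, sh-CBAP, CBAP-KO+GFP, sh-Ctrl and CBAP-reconstituted, and again only the last step passed the test as deposited (0.72, adjusted p = 0.00358). From sh-CBAP to CBAP-KO+GFP INPP5D differed by -0.18 (adjusted p = 0.162), which passed the test with quantile normalization (-0.44, adjusted p = 0.00765) and upper-quartile scaling (-0.29, adjusted p = 0.0368).

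PDPK1, the kinase of the AKT activation loop (chr16:2587980-2653189, plus strand), had 9.78 and 11.2 FPKM in sh-Ctrl, 11.7 and 11.6 in sh-CBAP and 10.3 and 9.69 in CBAP-reconstituted cells, and a listed 0 in each CBAP-KO+GFP library. No fold is given against a listed 0. In the table, 38 genes combined a listed 0 in both libraries of CBAP-KO+GFP cells with at least 5 FPKM in each of the other 6, among them PSMC2, a proteasome subunit used by every cell (46.1 to 83.3 FPKM elsewhere). The same count was 21 for sh-Ctrl, 20 for CBAP-reconstituted and 1 for sh-CBAP cells. Of the PDPK1 windows, 38.4% were shared with other annotated genes, and 11.9% with the near copy PDPK2P. The part of these in the listed 0 was not tested. In the shRNA set, where all values were above 0, the log2 change of PDPK1 was 0.14 (95% interval -0.06 to 0.35, adjusted p = 0.311).

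PHLPP1, the AKT phosphatase (chr18:60382774-60647666, plus strand), was the least abundant per length and varied the most among the genes without a listed 0, its condition means spanning 1.62 on the log2 scale. It had 3.99 and 3.24 FPKM in sh-Ctrl, 2.83 and 2.72 in sh-CBAP, 1.81 and 1.7 in CBAP-reconstituted and 0.52 and 0.479 in CBAP-KO+GFP cells. No conditions overlapped, and both CRISPR-set conditions lay below both shRNA-set conditions. PHLPP1 fell by 0.88 in the CRISPR set (standard error 0.1, adjusted p = 0.00136), to 0.285 times the FPKM of CBAP-reconstituted cells, and the call held under all 15 alternatives in which it was tested. With knockdown the log2 change was -0.28 (standard error 0.1, adjusted p = 0.131). Of the steps in its order, that from sh-Ctrl to sh-CBAP did not pass the test, while those from sh-CBAP to CBAP-reconstituted (0.46, adjusted p = 0.014, where 50.1% of all genes were called) and from there to CBAP-KO+GFP did. Its paralog PHLPP2 stayed between 2.48 and 3.54 FPKM, so that the ratio of PHLPP1 to PHLPP2 was 1.34 and 1.07 in sh-Ctrl, 0.832 and 0.769 in sh-CBAP, 0.651 and 0.686 in CBAP-reconstituted and 0.167 and 0.143 in CBAP-KO+GFP cells.

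**Figure D2:**
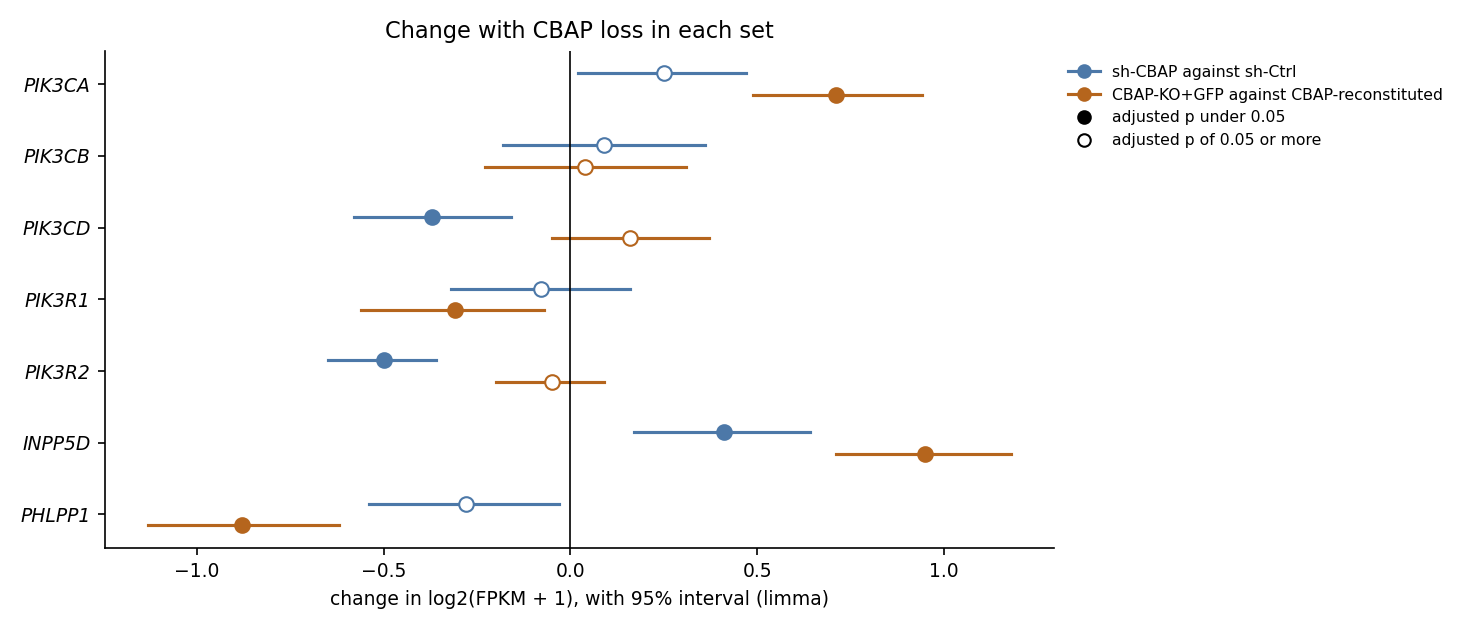
Change in log2(FPKM + 1) of 7 genes with CBAP loss in the shRNA set (blue) and the CRISPR set (brown), with 95% intervals from limma; filled points had an adjusted p under 0.05, and PDPK1 is left out because of its listed 0. INPP5D lay above 0 in both sets, PIK3R2 and PIK3CD below 0 in the shRNA set, and PHLPP1 below 0 by 0.88 in the CRISPR set.

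The changes in the 2 sets were compared directly by subtracting the CRISPR-set change from the shRNA-set change. This difference passed the test for 6 of 8 genes (5 without PDPK1), against 33.8% of all genes. For INPP5D (-0.54, adjusted p = 0.0286) and PIK3CA (-0.47, adjusted p = 0.0385) the rise was smaller with the shRNA, and for PHLPP1 (0.59, adjusted p = 0.0276) the fall was smaller. PIK3R2 (-0.45, adjusted p = 0.0109) and PIK3CD (-0.53, adjusted p = 0.0212) had been called in the shRNA set only. PIK3R1 (0.23, 95% interval -0.11 to 0.58) and PIK3CB (0.06, -0.32 to 0.44) did not pass. With quantile normalization 2 genes remained, PIK3R2 and PDPK1, while the calls over all genes went from 3861 to 3951. Removal of any 1 of the CRISPR-set libraries also left fewer of the 8 genes, and there fewer of all genes were called as well. PDPK1 kept its call in each of these cases, and PIK3R2 lost its call without CBAP-reconstituted replicate 1 alone.

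When the 4 CBAP-deficient libraries were compared with the 4 CBAP-expressing libraries without regard to the set, 0 of 8 genes passed the test in limma, against 0.621% of all genes. An unadjusted p under 0.05 was reached by 1 gene, INPP5D, against 21% of all genes (log2 difference 0.68, unadjusted p = 0.0124 and adjusted p = 0.137 from limma). INPP5D was also the only gene of the 8 whose classes did not overlap, which 14.9% of all genes did not. With the set as a covariate, 3 of 8 genes passed, against 12.3% of all genes, namely INPP5D (adjusted p = 0.0276), PIK3CA (0.48, adjusted p = 0.0449) and PHLPP1 (-0.58, adjusted p = 0.0488), over alternatives whose adjusted p reached 0.342, 0.503 and 0.706.

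Between the sets, the CRISPR-set lines could be set against the shRNA-set lines of the same CBAP status. These comparisons share libraries with those above, and the median over all genes was itself shifted, by 0.17 for CBAP-reconstituted against sh-Ctrl and by 0.20 for CBAP-KO+GFP against sh-CBAP cells (0.05 and 0.04 after quantile normalization). CBAP-reconstituted cells were lower than sh-Ctrl cells in 3 of 8 genes, against 39.4% called of all genes and 10.7% called lower. These were PHLPP1, INPP5D and PIK3CA, with changes relative to the median gene of -0.91, -0.89 and -0.88, and all alternatives tried kept the 3 calls. CBAP-KO+GFP cells differed from sh-CBAP cells in 4 of 8 genes (3 without PDPK1), against 52.8% of all genes. PIK3CD and PIK3R2 were higher, by 0.50 and 0.34 beyond the median gene, and PHLPP1 was lower, at -1.53 relative to it.

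Markers of the T lineage moved with the CRISPR-set comparison as well. Of the 10 markers, 6 were higher in CBAP-KO+GFP than in CBAP-reconstituted cells and 0 lower, against 23.9% higher and 25.9% lower of all genes, and with quantile normalization all 10 were higher. In the shRNA set 1 was higher and 2 were lower, against 3.62% and 8.7% of all genes. Their summed FPKM ranged from 1480 to 2410 over the libraries, with means of 1480 in CBAP-reconstituted, 1680 in sh-Ctrl, 1780 in sh-CBAP and 2190 in CBAP-KO+GFP cells. The last mean includes CD3E at 530 FPKM in replicate 1 and 1020 in replicate 2, against 364 to 511 in the other conditions. The abundant markers CD3D (log2 change 0.01) and LCK (-0.03) were not called in the CRISPR set. Among the 6 higher markers, CD5 was at 0.18 and 0.231 FPKM in CBAP-reconstituted and at 27.1 and 27.4 in CBAP-KO+GFP cells. CD79A, the B lineage marker in the table, was also low in CBAP-reconstituted cells (0.732 and 1.09). No listed 0 occurred among the T lineage markers. The part of such differences between the lines in the values of PIK3CA, INPP5D and PHLPP1 was not tested.

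The genes with the nearest profiles were sought for PHLPP1, INPP5D and PIK3CA, which had the widest range of condition means without a listed 0, by the root mean square difference of centred log2(FPKM + 1) over the 8 libraries, among 10541 genes. For INPP5D these were DAK (0.0744), PRKCB (0.106) and ANKRD44 (0.115), and PIK3CA ranked 6 (0.123). DAK (0.0674), RECK (0.0717) and AIG1 (0.0718) were nearest to PIK3CA, and INPP5D ranked 14. DAK, a dihydroxyacetone kinase, had 3.91 and 3.67 FPKM in sh-Ctrl, 4.57 and 4.94 in sh-CBAP, 1.86 and 1.74 in CBAP-reconstituted and 4.23 and 4.07 in CBAP-KO+GFP cells, and PRKCB, a protein kinase C of lymphocytes, 13.4 and 12.7 in CBAP-reconstituted cells against 22.9 to 35.3 elsewhere. For PHLPP1 the nearest were DPYD (0.108), PGAM4 (0.124) and DTD1 (0.129), of which PGAM4 is a near-identical copy of PGAM1 and its value uncertain. DPYD, which breaks down pyrimidines, stepped from 11.6 and 9.17 FPKM in sh-Ctrl to 3.29 and 2.81 in CBAP-KO+GFP cells. PHLPP1 itself went from 3.99 and 3.24 to 0.52 and 0.479 FPKM, a range that the added 1 narrows, so the match holds on that scale only. The remaining genes of the set without a listed 0 ranked 1327 or lower beside PIK3CA, 1736 or lower beside INPP5D and 2950 or lower beside PHLPP1.

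**Figure D3:**
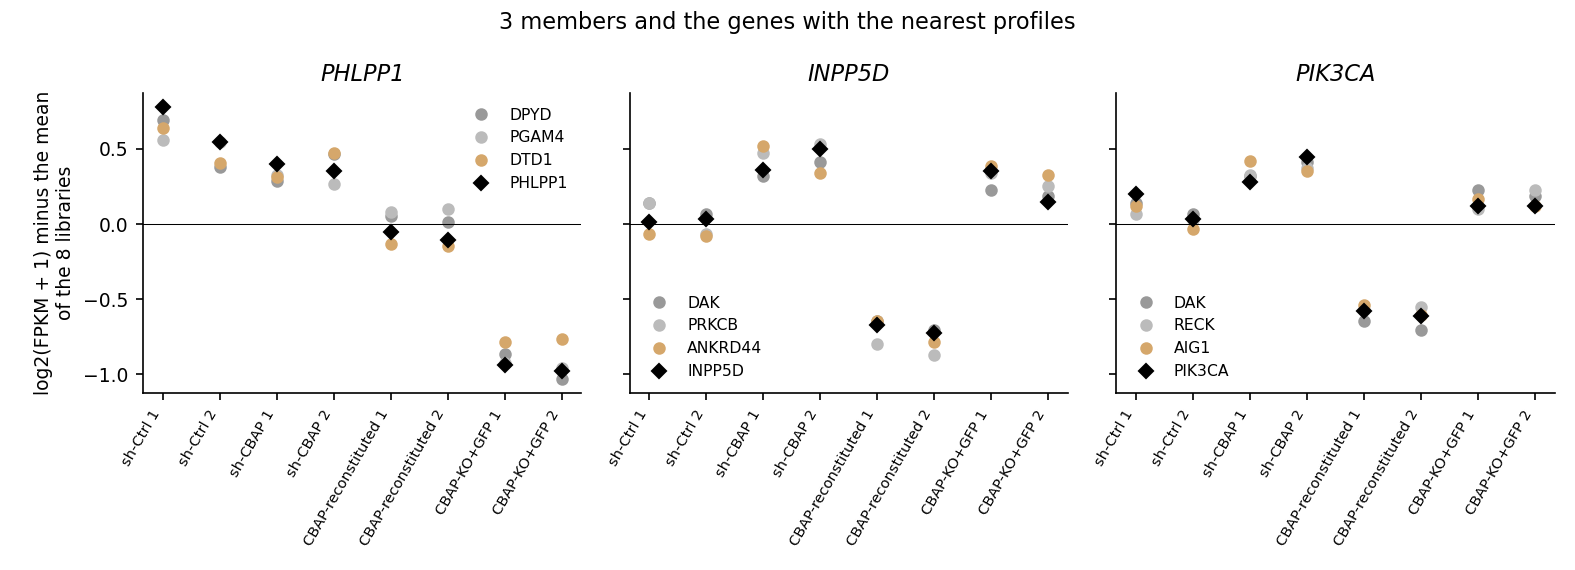
Log2(FPKM + 1) minus the mean of the 8 libraries for PHLPP1, INPP5D and PIK3CA (black diamonds) and the 3 genes nearest to each (circles), with 1 position per library. INPP5D, PIK3CA and DAK shared the low values of both CBAP-reconstituted libraries, while PHLPP1 and its neighbours were lowest in CBAP-KO+GFP cells.

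Of the other phosphoinositide phosphatases, 23 were tested. In the CRISPR set 8 were higher and 4 lower with CBAP loss, and in the shRNA set 1 was higher and 0 lower, against 49.9% and 12.3% of all genes called in these comparisons. The share in the CRISPR set was near that of all genes. The CRISPR-set count fell without any 1 of the CRISPR-set libraries, as did the count of all genes. The shRNA-set count fell without either CBAP-reconstituted library and rose without either sh-CBAP library, and the count of all genes did the same. The median change was 0.11 and 0.06, beside 0.00 and -0.06 over all genes. MTM1 and MTMR1, myotubularins that act on PI3P, are among the 8, and their calls rest on a listed 0 in both CBAP-reconstituted libraries. They had 10.8 and 11.6 and 18 and 24.5 FPKM in CBAP-KO+GFP cells. Whether these zeros stand for absent RNA was not tested. INPP5B was listed at 0 in sh-CBAP replicate 2. The PI3P phosphatase MTMR14 fell from 22 and 21.9 FPKM in CBAP-reconstituted to 12.3 and 12 in CBAP-KO+GFP cells (log2 change -0.80, adjusted p = 0.000618), and the 5-phosphatase INPP5K from 15.4 and 16.2 to 10.1 and 10 (-0.60, adjusted p = 0.000617). INPPL1 (SHIP2) and INPP4A, paralogs of INPP5D and INPP4B named here after their values were seen, rose by 0.45 each in the CRISPR set (adjusted p = 0.0145 and 0.00218, the former 0.0551 to 0.0918 without any 1 of the CRISPR-set libraries), with 0.03 and 0.02 in the shRNA set (adjusted p = 0.888 and 0.886). The ratio of INPP5D to INPPL1 was 0.246 and 0.253 in CBAP-reconstituted and at least 0.366 in the other libraries.

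The other PI3K subunits, of class IB, II and III and the regulatory PIK3R3, gave 7 tested genes, of which 1 was higher and 3 were lower in the CRISPR set and 0 in either direction in the shRNA set, against 49.9% and 12.3% of all genes. The gene higher in the CRISPR set, PIK3R5, lost its call with quantile normalization (all genes: from 5697 to 5796). Its call was also lost without any 1 of the CRISPR-set libraries. A lower call was lost without CBAP-reconstituted replicate 1 or CBAP-KO+GFP replicate 2. Fewer of all genes were called whenever a CRISPR-set library was left out. In the shRNA set 1 gene was called higher with upper-quartile scaling and without the filter (all genes: 1645 and 1643, from 1408). A higher call also appeared without either sh-CBAP library, where more of all genes were called. PIK3CG, the class IB catalytic subunit, was at 12.2 and 11.2 FPKM in CBAP-reconstituted and 5.84 and 6.56 in CBAP-KO+GFP cells (-0.82, adjusted p = 0.00108). PIK3R3 (p55γ) was at 32.6 and 33 against 23.7 and 23.5 (-0.46, adjusted p = 0.0012), and at 17.3 to 20.6 in the shRNA set. It made up 30.9% to 43.1% of the FPKM of the 3 class IA regulatory genes. Of 11 phosphoinositide kinases tested, 4 were higher and 1 lower in the CRISPR set and 0 were called in the shRNA set, against the same shares of all genes. The CRISPR-set count of kinases fell without any 1 of the CRISPR-set libraries, as did that of all genes. In the shRNA set 2 were called lower with a pseudocount of 0.1 and with genes with a listed 0 left out (all genes: 1447 and 1735, from 1408). Lower calls also appeared without sh-CBAP replicate 2, where more of all genes were called. PIKFYVE, which makes PI(3,5)P2, rose from 8.88 and 8.45 to 18.1 and 18.8 FPKM (1.01, adjusted p = 0.000496).

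Adaptors and regulators recruit PI3K to activated receptors or modulate its activity. Of 14 tested, 6 were higher and 3 lower in the CRISPR set, and 3 were higher and 1 lower in the shRNA set, against 49.9% and 12.3% of all genes called. Without any 1 of the CRISPR-set libraries the former fell, as did the count of all genes. The latter fell to 2 and 0 with the replicate block, without the filter and with a minimum mean of 5 (all genes: 776, 1643 and 1062, from 1408). It also fell without any 1 library other than sh-CBAP replicate 2. Fewer of all genes were called in these last fits, except without sh-CBAP replicate 1, where more were called. GAB2, a scaffold that binds p85, was at 0.807 and 0.815 FPKM in CBAP-reconstituted and 22.9 and 23.7 in CBAP-KO+GFP cells (log2 change 3.74, adjusted p = 2.2e-05), against 0.557 to 1.21 in the shRNA set. The costimulatory receptor CD28 was at 2.93 and 2.59 against 35.5 and 37.5 (3.32, adjusted p = 1.7e-05), and at 24.1 to 29.2 in the shRNA set. For GAB2 it was thus the CBAP-KO+GFP libraries that stood apart, and for CD28 the CBAP-reconstituted libraries. TRAT1, an adaptor of the T-cell receptor that binds p85, rose in the shRNA set from 19.2 and 24.5 to 46 and 50.6 FPKM (1.12, adjusted p = 0.0069), and was at 52.9 to 58.5 in the CRISPR set. GAB3 was higher with CBAP loss in both sets, by 0.82 (adjusted p = 0.0106) and 0.58 (adjusted p = 0.00545). PIK3AP1 (-0.86, adjusted p = 0.00158) and the GTPase RRAS2 (-0.58, adjusted p = 0.00525) were lower in the CRISPR set.

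Of 16 PIP3-binding effectors tested, 5 were higher and 2 lower in the CRISPR set, and 2 were higher and 2 lower in the shRNA set, against 49.9% and 12.3% of all genes called. The CRISPR-set count of effectors fell without either CBAP-reconstituted library, as did that of all genes. The shRNA-set count fell to 1 higher and 0 lower with the replicate block (all genes: from 1408 to 776). It also fell without any 1 of the sh-Ctrl, CBAP-reconstituted or CBAP-KO+GFP libraries, where fewer of all genes were called. PREX1, a RAC activator that binds PIP3, was at 3.12 and 3.18 FPKM in CBAP-reconstituted and 12.2 and 11.6 in CBAP-KO+GFP cells (1.63, adjusted p = 0.000168). The ARF activator CYTH1 fell from 72.9 and 72.4 to 51.5 and 48.4 (-0.53, adjusted p = 0.000832) in the CRISPR set. CYTH1 was called higher in the shRNA set (0.35, adjusted p = 0.0181), a call that was lost without either CBAP-reconstituted library, with an adjusted p of up to 0.0665 over all alternatives. The other gene lower in the CRISPR set was GRB2 (-0.42, adjusted p = 0.00863), an adaptor in this list that binds phosphotyrosine and not PIP3, and its call was lost with quantile normalization and without CBAP-reconstituted replicate 2. By the rule for named genes, 32 changes of genes without a listed 0 were eligible to be named in these lists. Of these, 16 were called under every alternative, all those named above except PIK3R5, GRB2 and the shRNA-set call of CYTH1 among them, and none of the 32 turned direction under an alternative.

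**Figure D4:**
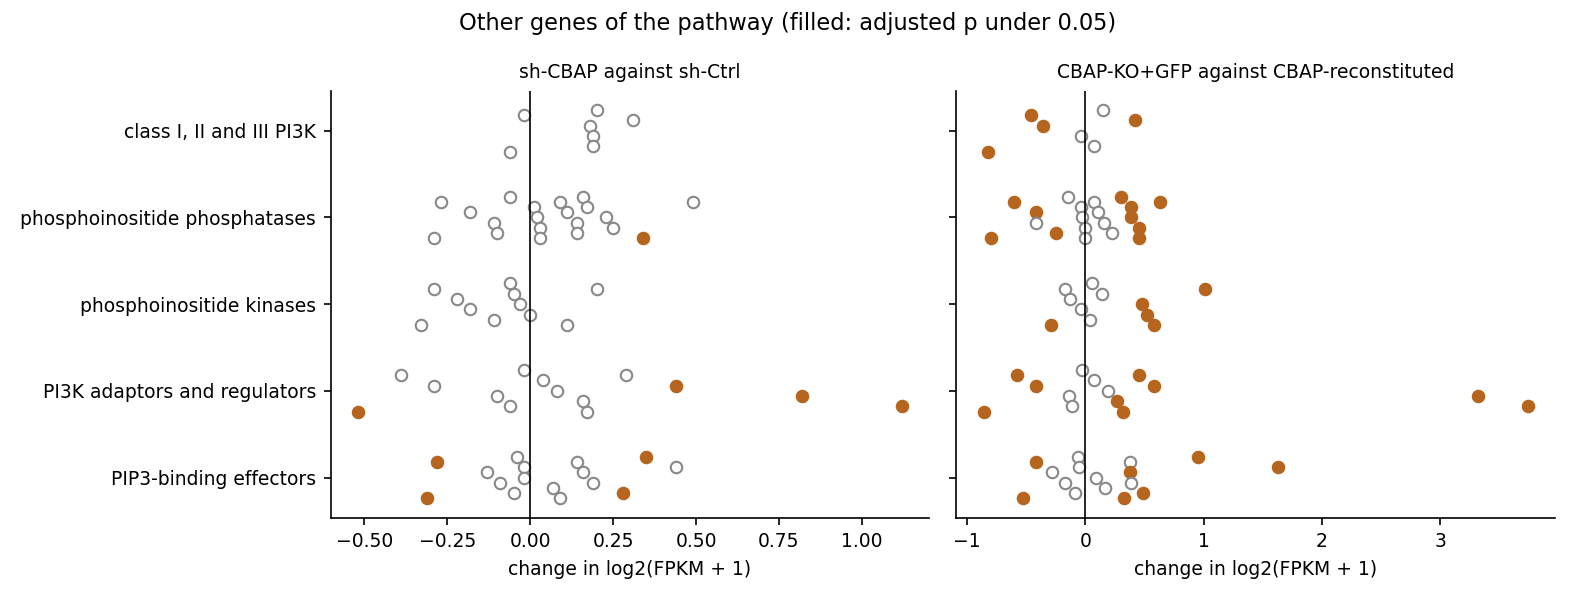
Change in log2(FPKM + 1) with CBAP loss of the other genes of the pathway, in 5 lists, for the shRNA set (left) and the CRISPR set (right), with 1 circle per tested gene, filled where the adjusted p was under 0.05; genes with a listed 0 are left out and the horizontal scales differ. GAB2 and CD28 lie beyond 3 in the CRISPR set, and TRAT1 is farthest to the right in the shRNA set.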

How the data were processed

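RNA from Jurkat cells was sequenced with 100-bp paired-end reads. The authors aligned them to hg19 with TopHat 2 and estimated FPKM with cuffdiff, and these FPKM were deposited as 1 table with 1 column per library. The submitters' processing notes also name CASAVA 1.8. The gene annotation, the exact versions of TopHat 2 and cuffdiff, the library strand and the scaling between libraries are not given in the sources used here. FPKM hold no counts, so depth is unknown and precision rests on 2 libraries per condition.

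From the deposited FPKM, log2(FPKM + 1) of genes with a mean of at least 1 was fitted with limma 3.58.1 (R 4.3.3, empirical Bayes with trend), with Benjamini-Hochberg adjustment and a threshold of 0.05. One model had a mean for each condition, with a spread shared by all 8 libraries, and the other compared 4 with 4 libraries. The script was checked on simulated data. Alternatives changed the pseudocount (0.1), the filter (none, or a mean of 5), the scaling, the trend, the replicate block, the set as a covariate and listed zeros, and left out each library in turn.

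The genes and lists were chosen with earlier results of these data known. Named were every gene of the set, TMEM102, up to 3 called rises and 3 called falls per list and comparison, and the 3 nearest profiles of the 3 widest-ranging genes without a listed 0. Genes fixed by this rule that are not named are not reported here. CD5, PSMC2, INPPL1, INPP4A, PHLPP2, INPP5B and genes overlapping the set were added after their values were seen. Overlap was the share of 100-base windows of the longest transcript found in another gene of GENCODE 44 lifted to GRCh37. Promoters are from RefSeq (GRCh38.p14). Python 3.11.15, numpy 2.4.6, pandas 2.3.3 and matplotlib 3.10.9 were used.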

Additional observations from a re-analysis of the deposited data

Results flagged for a closer look

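The change with CBAP loss differed between the shRNA set and the CRISPR set for 6 of 8 genes, against 33.8% of all genes. The difference itself was tested (limma), and with quantile normalization only PIK3R2 and PDPK1 of the 6 passed. Taken as the shRNA-set change less the CRISPR-set change (log2), the difference was -0.47 for PIK3CA, -0.53 for PIK3CD, -0.45 for PIK3R2 and -0.54 for INPP5D. It was 0.59 for PHLPP1 and 3.6 for PDPK1, the last resting on its listed 0 in both CBAP-KO+GFP libraries. PIK3CD had changes of opposite sign in the sets (-0.37 with knockdown and 0.16 with knockout, the latter not past the threshold). By Dixon's ratio of the gap at an end to the range, no library was flagged in any of 16 groups of 4 (each gene in the CBAP-expressing and in the CBAP-deficient libraries). Each group pooled an shRNA-set condition with a CRISPR-set condition. A difference between these lines widens the range and can hide a single deviating library. For PDPK1 the CBAP-deficient values were 11.7 and 11.6 FPKM in sh-CBAP and a listed 0 in both CBAP-KO+GFP libraries. The absence of flags therefore does not decide whether any library deviated from its replicate.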

How the results depend on the processing

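Over all alternatives, 764 values of a gene in a comparison were computed: 677 kept direction and call, 56 lost and 12 gained a call, and 19 changed sign. The number of genes of the set called in the shRNA set fell from 3 to 1 without the filter and with the replicate block. Over all genes the calls rose from 1408 to 1643 without the filter and fell to 776 with the block. With a library left out, the number of the set stayed the same or was lower. The block rests on shared numbers only. Deviations of replicate 1 correlated at 0.146 between sh-Ctrl and sh-CBAP and at 0.024 between CBAP-reconstituted and CBAP-KO+GFP cells. Between conditions of different sets the correlation was -0.063 to -0.001. These values do not decide whether libraries with the same number were prepared together. The number whose change differed between the sets fell from 6 to 2 with quantile normalization (all genes: from 3861 to 3951). It was also lower without any 1 of the CRISPR-set libraries, as was the count of all genes. The 4 against 4 comparison went from 0 to 3 with the set as a covariate (all genes: from 71 to 1404, and to 185 without the filter, 173 and 168 with quantile and upper-quartile scaling and 11 with the block), and CBAP-KO+GFP against sh-CBAP from 4 to 7 with quantile normalization. With a library left out, the CRISPR set gave 4 to 5, CBAP-reconstituted against sh-Ctrl 3 to 4, CBAP-KO+GFP against sh-CBAP 4 to 5 and the 4 against 4 comparison 0. The causes were not tested.

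None of the values that changed sign was called in the comparison as reported. For each, the range with a library left out follows. In the shRNA set they were PIK3CB without sh-CBAP replicate 2 (-0.03, range -0.03 to 0.22) and PIK3R1 without sh-Ctrl replicate 2 (0.06, range -0.22 to 0.06), and in the CRISPR set PIK3CB with quantile normalization (-0.1) and without CBAP-reconstituted replicate 2 (-0.004, range -0.004 to 0.08). The difference between the sets turned for PIK3CB without sh-Ctrl replicate 2 (-0.02) or sh-CBAP replicate 2 (-0.07, range -0.07 to 0.18), and the 4 against 4 difference for PIK3CD without sh-CBAP replicate 2 (0.03, range -0.22 to 0.03). For CBAP-reconstituted against sh-Ctrl, PIK3CB turned with quantile (-0.01) and upper-quartile scaling (-0.04) and without sh-Ctrl replicate 2 (-0.02, range -0.02 to 0.13), PIK3R2 with the same scalings (-0.07 and -0.02) and PDPK1 without sh-Ctrl replicate 2 (0.03, range -0.15 to 0.03). For CBAP-KO+GFP against sh-CBAP, PIK3CB turned without sh-CBAP replicate 2 (0.12) or CBAP-KO+GFP replicate 1 (0.03; range -0.13 to 0.12), and PIK3R1 with both scalings (-0.19 and -0.11) and without those libraries (-0.02 and -0.03; range -0.03 to 0.05).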
